A study of Homo sapiens with 12 samples.

Results

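The nuclear-encoded subunits of the mitochondrial respiratory chain were examined in K-562, an erythroleukemia cell line of human origin, after knockdown of the transcription factor MYB and in lines that carried added MYB. The genes were taken from an RNA sequencing table by symbol (NDUFA, NDUFB, NDUFC, NDUFS and NDUFV genes with a number, SDHA to SDHD, UQCR genes, CYC1, COX4 to COX8 genes, and ATP5F1, ATP5M and ATP5P genes). Of 60658 rows, 89 protein-coding rows matched, and 81 had at least 1 FPKM (fragments scaled to transcript length and to the size of the library) in at least 3 of the 12 libraries. These 81 genes are 37 of complex I, 4 of complex II, 9 of complex III, 13 of complex IV and 18 of complex V. NDUFA4 was counted with complex IV, where its protein is placed today. NDUFAB1 and ATP5IF1 fall outside these symbols and were counted with other lists.

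The study has 4 groups of 3 libraries, taken in 3 experiments, with RNA drawn 24 hours after siRNA transfection. The siRNA_Control group is a G418-selected K-562 line with the 3xTY1 tag alone and a non-targeting siRNA. The MYB_KnockDown group is a line with the same tag that received si2992, an siRNA against MYB. The MYB-WT_Rescue group stably expressed 3xTY-hcM and the D152V_Rescue group 3xTY-D152V, a form named for an amino acid change in MYB, and both received si2992. The sources used here do not say whether each line is 1 clone or a pool. A difference between a rescue group and another group can therefore lie in the added protein or in the line, and these cannot be told apart.

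The respiratory chain passes electrons from NADH through complex I, or from succinate through complex II, to ubiquinone, then through complex III and cytochrome c to oxygen at complex IV. Complexes I, III and IV pump protons across the inner mitochondrial membrane, and complex V, the ATP synthase, uses that gradient to make ATP. Mitochondrial DNA encodes some core subunits of complexes I, IV and V and cytochrome b of complex III, and all other subunits are made from nuclear genes, many of which have binding sites for NRF1 and ETS-family factors in their promoters.

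MYB itself was at 124, 132 and 104 FPKM in the control libraries, 26.1, 32.9 and 31.5 in the knockdown, 132, 125 and 115 in MYB-WT_Rescue and 86.6, 86.2 and 100.4 in D152V_Rescue. The knockdown libraries were all far below the others, which fits their labels; the rescue values do not separate endogenous from added MYB. All 10 erythroid marker genes passed the filter on low values. Their summed level was 1412 to 2920 FPKM in the controls, 1836 to 6010 in the knockdown, 1007 to 2049 in MYB-WT_Rescue and 2298 to 3890 in D152V_Rescue, so the rescue lines did not overlap each other, while each overlapped the controls and the knockdown. Of 15 markers of other cell types, 6 passed the filter. The sums in the same group order were 15.7 to 24.3, 8.26 to 27.8, 10.8 to 14.1 and 3.65 to 5.15 FPKM for the 5 monocyte and granulocyte markers, and 19.9 to 25.9, 18.1 to 77.0, 34.7 to 60.9 and 79.6 to 112.5 for the 5 lymphoid ones. For the 5 fibroblast and epithelial markers they were 60.3 to 61.6, 46.0 to 129.6, 53.6 to 76.3 and 32.8 to 38.9. Most of each sum lay in LYZ, CD3D or EPCAM. In D152V_Rescue against the controls, CD3D was higher (2.15, adjusted p = 0.00917) and LYZ lower (-2.07, adjusted p = 0.00528). ELANE and MS4A1 are listed at 0 in all libraries, and an exact 0 in this table need not be a low level, since 3 mitochondrial genes that every cell uses are also listed at 0 in 9 libraries. The part of these markers in the results was not tested. MYB_KnockDown replicate 1 stood apart: its correlation with the other knockdown libraries over the tested genes was 0.929 to 0.93, against at least 0.983 for all other pairs within a group, and its FPKM total was 1215580 against 672616 to 798362. Results are given with all 12 libraries and with the 11 that remain without it. In bulk RNA, fewer cells of a type and less RNA per cell cannot be told apart.

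The subunit genes were among the most abundant transcripts. Their median level over the 12 libraries was 172 FPKM against 11.7 for the 13393 genes that passed the same filter and were tested, and 53 of the 81 ranked in the top 1000. FPKM is a level per transcript length, so genes were set side by side. The annotation behind these lengths is not named, so the order of the genes is approximate. In complex I, mean levels ran from 35.9 FPKM for NDUFB6, an accessory subunit of the membrane arm, to 758 for NDUFS5, an accessory subunit on the intermembrane side. The 4 subunits of complex II, succinate dehydrogenase, were the closest to each other, from 72.7 FPKM for the flavoprotein SDHA to 165 for the iron-sulfur subunit SDHB. In complex III, the hinge protein UQCRH reached 1470 FPKM and the Rieske iron-sulfur protein UQCRFS1 was lowest at 47.1. In complex IV, COX4I1 was highest at 547 FPKM, and in complex V the small membrane subunit ATP5MF reached 1650. The 2 read-through genes NDUFC2-KCTD14 and ATP5MF-PTCD1, transcribed into a neighbouring gene, were also taken by the symbols, and a fragment can be assigned to either the subunit or its read-through.

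The 8 matching genes that failed the filter are mostly isoforms known from particular tissues. COX4I2, COX6A2, COX7A1, COX8C and ATP5MGL are listed at 0 in all 12 libraries, which in this table does not separate a low level from a failed estimate, and COX6B2, NDUFA4L2 and UQCRHL had means of 0.224, 0.231 and 0.167 FPKM. These 8 genes were not tested. The gene nearest to the filter from inside was COX7B2, a testis isoform of COX7B, with a mean of 1.65 FPKM. Of 173 pseudogene rows with matching symbols, 21 were above 0 in any library and none passed the filter, the highest at a mean of 0.48 FPKM. The sources used here do not say how the authors divided fragments between subunit genes and their processed copies, so the levels of genes with such copies are uncertain.

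To show what precedes the starts of these genes, 6 windows of 150 bases just before a RefSeq start of transcription are printed. They are from the gene of each complex with the largest fall in MYB-WT_Rescue against the knockdown among those with a promoter entry, and from COX7A2L, which moved the opposite way. Capitals mark matches on either strand to the NRF1 motif (GCGC, any 2 bases and again GCGC), the ETS motif CCGGAAG, the YY1 motif and the MYB motif, CAACNG or TAACNG.
NDUFB11 (chrX:47144703-47144852, minus strand): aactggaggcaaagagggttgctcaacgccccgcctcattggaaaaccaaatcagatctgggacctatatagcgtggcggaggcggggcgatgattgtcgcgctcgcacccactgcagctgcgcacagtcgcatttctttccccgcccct
SDHB (chr1:17054033-17054182, minus strand): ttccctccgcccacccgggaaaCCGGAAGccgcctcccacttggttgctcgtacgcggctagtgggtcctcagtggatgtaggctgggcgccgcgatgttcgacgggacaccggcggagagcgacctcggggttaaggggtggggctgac
UQCR11 (chr19:1605463-1605612, minus strand): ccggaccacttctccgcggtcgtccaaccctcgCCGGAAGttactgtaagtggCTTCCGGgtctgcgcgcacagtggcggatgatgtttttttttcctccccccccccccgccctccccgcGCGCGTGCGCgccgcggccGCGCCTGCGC
COX5A (chr15:74938074-74938223, minus strand): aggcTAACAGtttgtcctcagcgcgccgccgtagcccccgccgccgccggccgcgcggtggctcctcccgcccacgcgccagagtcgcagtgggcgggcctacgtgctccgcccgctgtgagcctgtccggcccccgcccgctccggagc
ATP5ME (chr4:674277-674426, minus strand): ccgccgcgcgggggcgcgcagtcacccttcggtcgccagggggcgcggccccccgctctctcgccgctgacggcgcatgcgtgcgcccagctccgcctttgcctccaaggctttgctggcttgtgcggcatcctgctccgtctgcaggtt
COX7A2L (chr2:42361218-42361367, minus strand): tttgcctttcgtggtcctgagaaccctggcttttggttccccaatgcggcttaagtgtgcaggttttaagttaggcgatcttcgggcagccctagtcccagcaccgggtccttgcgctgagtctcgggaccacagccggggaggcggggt

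The coordinates are those of the RefSeq table on GRCh38.p14. UQCR11 held 2 NRF1 and 2 ETS matches in its 150 bases, SDHB 1 ETS match and COX5A 1 MYB match. The other 3 of these short windows held none of the 4 motifs. In the full windows of 300 bases, ATP5ME held NRF1, ETS and MYB matches, NDUFB11 a MYB match and SDHB also a YY1 match. COX7A2L has 2 windows in the table, of which 1 is shown. It lies inside the gene (chr2:42335559-42368957), so it precedes an internal start of transcription and not the outermost end of the gene. Over the full windows of 300 bases, 250 before and 50 after the start, 67 of the 81 genes had 80 entries. The NRF1 motif was in 21.2% of these windows, against 14.4% of windows of all tested genes and 8.32% of all windows in the table. The ETS motif was in 27.5%, 18.3% and 10.3%, and the YY1 motif in 11.2%, 2.62% and 1.2%. The MYB motif was in 41.2% of the subunit windows, 44.1% of those of tested genes and 46.2% of all. CACGTG (E-box) was in 8.75%, 9.6% and 7.26%, GGGGCGGGG (SP1) in 15%, 25.3% and 15.7%, and CCAAT in 32.5%, 35.2% and 34.6%. Both strands were searched, no motif contains another, and a match is a run of letters, not a measured site.

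Across the 4 groups the subunit genes moved together in level. For each library, the median over the 81 genes of the difference from the control mean, in log2(FPKM + 1), was 1.42, 0.30 and 0.27 in the knockdown libraries, -0.25, -0.30 and -0.20 in MYB-WT_Rescue, and -0.14, -0.06 and -0.06 in D152V_Rescue. The control libraries themselves lay at -0.05, 0.00 and 0.05, around their own mean. On this scale, all libraries of the other groups were outside that range, and 3 of 3 pointed the same way in each group. D152V_Rescue replicates 2 and 3 were close to its edge, at -0.059 and -0.055 against -0.047 for siRNA_Control replicate 1. With quantile normalization the D152V_Rescue libraries were at 0.008, 0.031 and 0.010, inside the control range of -0.025 to 0.039. With the trend with transcript length removed they were at -0.064, -0.033 and -0.037, against -0.016 to 0.021 in the controls. Without either change, the median over all tested genes stayed between -0.07 and 0.02 in every library. The 81 genes made up 2.39% to 2.86% of the FPKM total in the controls, 4.16%, 3.09% and 3.22% in the knockdown, 2.15% to 2.31% in MYB-WT_Rescue and 2.45% to 2.63% in D152V_Rescue.

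**Figure D1:**
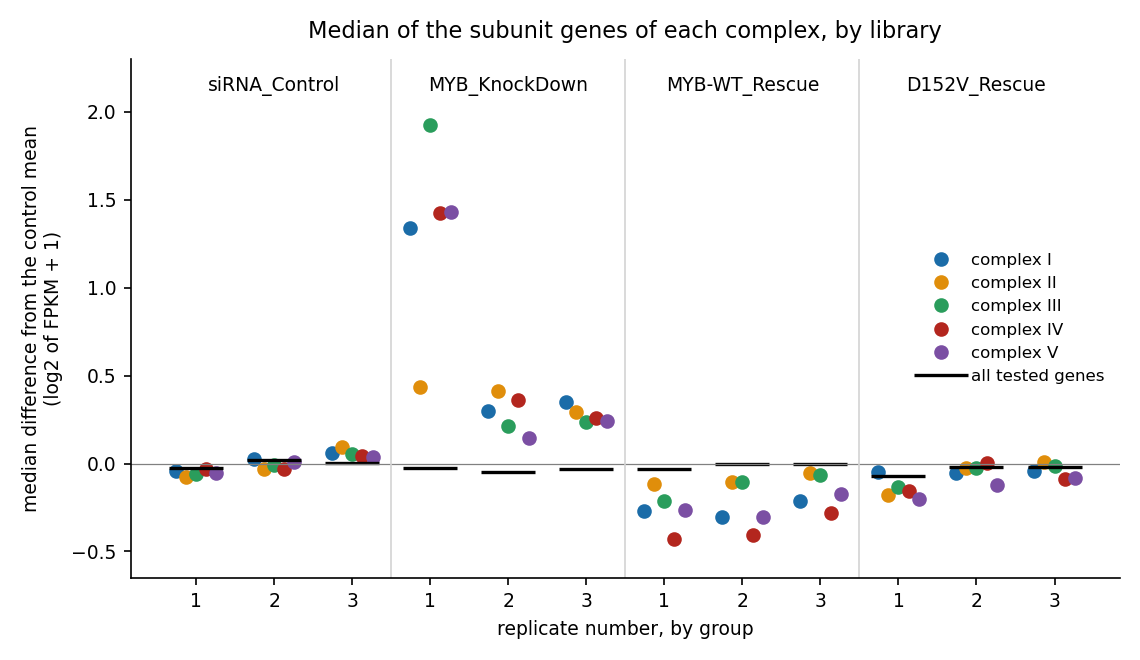
Median difference from the control mean, in log2(FPKM + 1), of the subunit genes of each complex (coloured points) and of all tested genes (black bars), with the 12 libraries on the x axis by group and replicate number. In MYB_KnockDown replicate 1 the medians of complexes I, III, IV and V are 1.34 to 1.92, in replicates 2 and 3 those of all complexes are 0.15 to 0.41, and in MYB-WT_Rescue every median is below 0.

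The first comparison sets the knockdown, in which MYB was lowered by the siRNA si2992 but not absent, against the controls. A gene was called when its adjusted p was under 0.05 in a limma fit over all tested genes. Against the controls, 21 subunit genes were higher and 1 was lower in the knockdown, where 3.94% of all tested genes were called higher and 7.38% lower. The 21 are 25.9% of the 81 genes. The median change was 0.64, against -0.03 over all tested genes. Without MYB_KnockDown replicate 1, 39 genes (48.1%) were higher and 2 lower, against 7.26% and 12.9% of all tested genes, and the median was 0.29. The 21 genes are all among the 39. The 3 control and 3 knockdown values did not overlap for 57 genes that were higher and 4 that were lower (15.2% and 21.3% of tested genes).

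By complex, 12 of 37 genes of complex I, 1 of 4 of complex II, 0 of 9 of complex III, 4 of 13 of complex IV and 4 of 18 of complex V were called higher in the 12 libraries, and 22, 3, 2, 6 and 6 in the 11. For complex III, 5 of the 9 genes had an unadjusted limma p under 0.05 in the 12 libraries. Median changes by complex were 0.63, 0.40, 0.69, 0.84 and 0.53 for I to V in the 12 libraries and 0.32, 0.35, 0.23, 0.29 and 0.18 in the 11. The size with all libraries is thus partly that of replicate 1, while all 5 medians stayed above 0 without it.

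**Figure D2:**
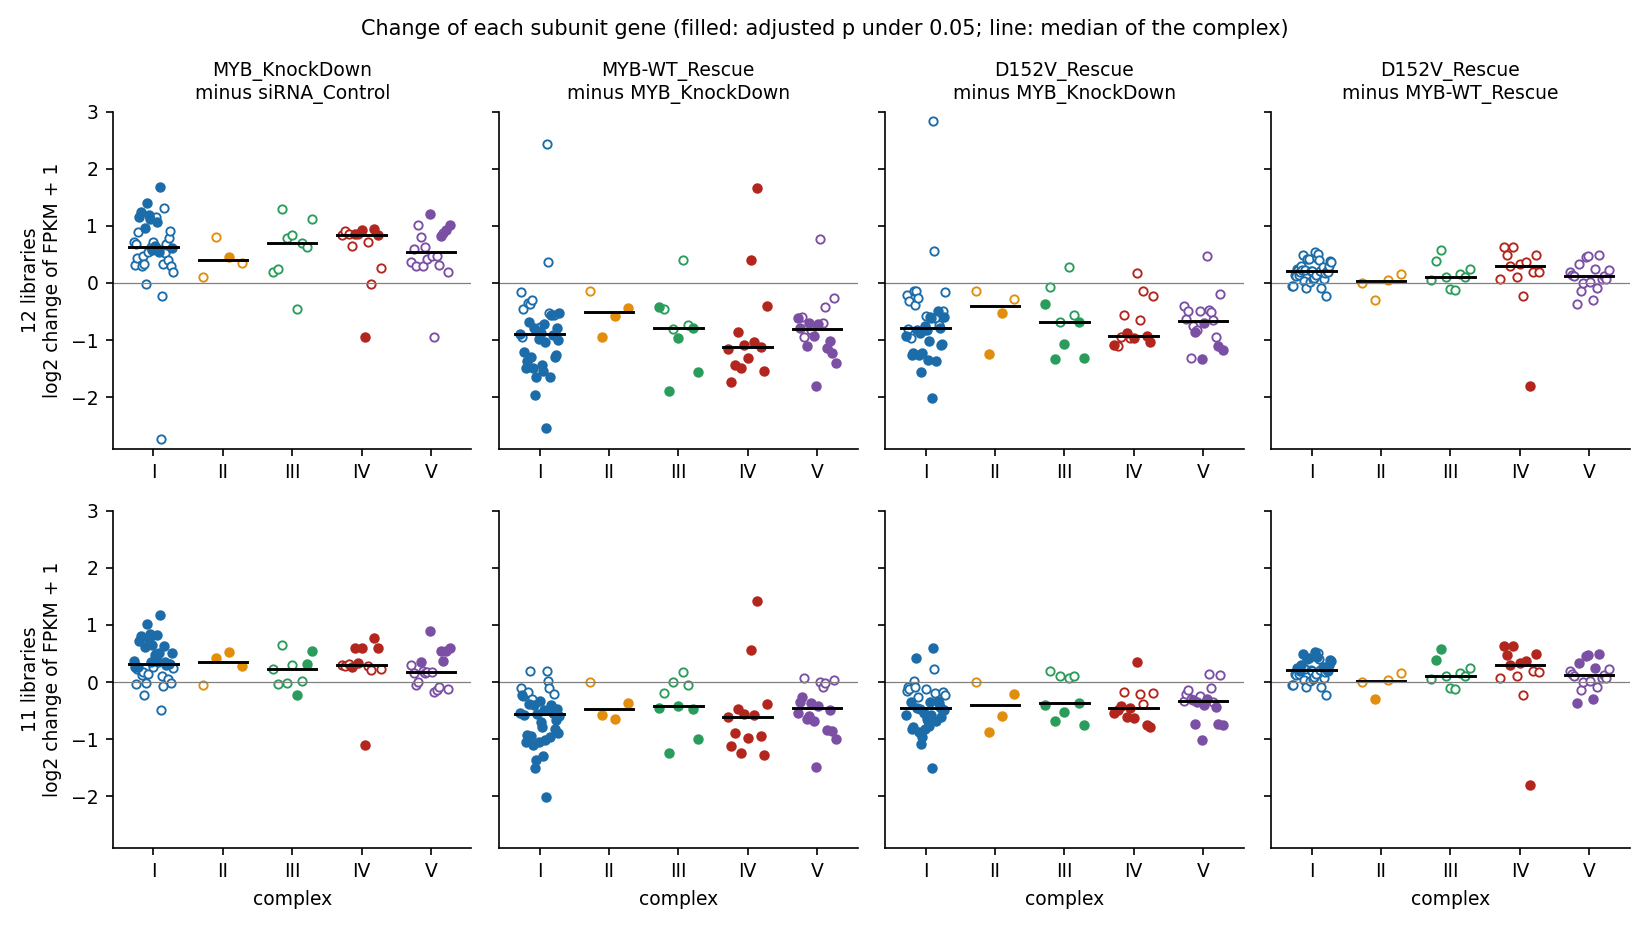
Log2 change of each subunit gene (points, grouped by complex on the x axis) in 4 comparisons, with all 12 libraries in the upper row and without MYB_KnockDown replicate 1 in the lower row; filled points have an adjusted p under 0.05 and lines are the median of a complex. Most points lie above 0 in the knockdown against the controls and below 0 in both rescues against the knockdown, with 39 and 60 and 49 filled points in those directions in the lower row.

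In complex I, NDUFB1, NDUFB2, NDUFB11 and NDUFA3, which encode small accessory subunits of the membrane arm, were among the 12 genes called higher. NDUFB1 was at 88.1, 100.4 and 116 FPKM in the controls and 451, 196 and 213 in the knockdown. Every knockdown value was above every control, and the log2 change was 1.39 ± 0.25 (SE, adjusted p = 0.0109) with 12 libraries and 1.01 ± 0.10 (adjusted p = 0.000263) with 11. NDUFB2 was at 71.5, 79.0 and 80.4 FPKM in the controls and 249, 136 and 142 in the knockdown, a change of 1.12 ± 0.21 (adjusted p = 0.0121). NDUFB11, required for assembly of the membrane arm, went from 39.7, 37.3 and 41.2 FPKM to 174, 70.3 and 61.6, a change of 1.19 ± 0.31 (adjusted p = 0.0361). NDUFA3 was at 41.4 ± 4.96 FPKM (SD, n = 3) in the controls and at 181, 68.8 and 76.6 in the knockdown, again without overlap, with a change of 1.24 ± 0.30 (adjusted p = 0.0287).

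NDUFS3, NDUFV1 and NDUFS1, which encode core subunits of complex I, were not called with 12 libraries. NDUFS3, a core subunit of the peripheral arm, was at 53.8, 51.9 and 54.8 FPKM in the controls and 346, 84.2 and 82.6 in the knockdown. The groups did not overlap, yet the call came only without replicate 1, with a change of 0.63 ± 0.10 and an adjusted p of 0.00264, against 1.31 ± 0.42 and 0.0647 with it. NDUFV1, which binds NADH, was at 178 ± 8.42 FPKM in the controls and 339.8, 179.7 and 172 in the knockdown. NDUFS1, an iron-sulfur subunit and the largest of the complex, was at 47.7, 47.9 and 51.9 FPKM in the controls and 25.8, 48.7 and 57.9 in the knockdown. For both genes the groups overlapped and neither fit gave a call (adjusted p of 0.355 and 0.503 with 12 libraries, 0.909 and 0.485 with 11).

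The largest change in complex I was that of NDUFC2, an accessory subunit on chromosome 11, and it is uncertain. NDUFC2 was at 104, 157 and 147 FPKM in the controls and 881, 295 and 307 in the knockdown, a change of 1.68 ± 0.40 (adjusted p = 0.026). Its read-through NDUFC2-KCTD14 was at 148.7, 151.6 and 138.2 FPKM in the controls and at 0, 126 and 85.8 in the knockdown. The proportion between the 2 rows thus differed between libraries. Whether the read-through itself or the assignment of fragments differed was not tested. The sum of both rows, 252, 308 and 285 FPKM in the controls and 881, 421 and 393 in the knockdown, was higher in every knockdown library. Their canonical transcripts have 2168 and 530 nt, so this sum can shift when fragments move from 1 row to the other.

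In complex II, SDHC, a membrane anchor, rose from 87.7, 86.5 and 107 FPKM to 116, 138 and 132, a change of 0.46 ± 0.12 (adjusted p = 0.0303). SDHC is the only member of complex II for which replicate 1 was the lowest of the knockdown libraries. SDHB was at 138, 148 and 150.1 FPKM in the controls and 432, 199 and 191 in the knockdown, and SDHD, the other anchor, at 132, 128 and 135 against 185, 170.1 and 149.9. Neither overlapped, and both were called only in the 11 libraries (adjusted p of 0.0191 and 0.0195, against 0.0637 and 0.054 in the 12). SDHA, at 72.5 ± 6.8 FPKM in the controls and 78.2 ± 14.2 in the knockdown, overlapped and was not called in either fit.

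In complex III, UQCRQ, which sits next to cytochrome b, was at 105, 104 and 110.2 FPKM in the controls and 509, 150.4 and 162 in the knockdown, and was called in the 11 libraries with a change of 0.54 ± 0.10 (adjusted p = 0.00447). UQCRH, called with it, changed by 0.32 ± 0.09 (adjusted p = 0.028). UQCR11 was at 65.2, 67.2 and 72.7 FPKM in the controls and 417, 99.3 and 117 in the knockdown. Its values did not overlap, but the adjusted p was 0.0732 in the 12 libraries and 0.0548 in the 11. The catalytic Rieske protein UQCRFS1 had 36.6, 36.1 and 37.3 FPKM in the controls and 154, 36.4 and 38.0 in the knockdown, so that its mean difference lay in replicate 1 alone. The core protein UQCRC2 went the other way, from 236, 246 and 258 FPKM to 133, 201 and 219, and was lower in the 11 libraries (change of -0.23 ± 0.07, adjusted p = 0.0431).

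In complex IV, COX7C, a small membrane subunit, had 295, 284 and 334 FPKM in the controls and 750.4, 533 and 506 in the knockdown, a change of 0.95 ± 0.16 (adjusted p = 0.00895). COX7A2, COX6B1 and COX8A also rose, by 0.92 ± 0.23, 0.85 ± 0.24 and 0.84 ± 0.22, and all 3 remained called in the 11 libraries. COX5A, which binds the matrix face, was at 168, 165 and 173 FPKM in the controls and 741, 217 and 196 in the knockdown. It did not overlap but was not called in either fit (adjusted p of 0.137 and 0.133), and the same held for COX4I1 (0.13 and 0.105) and COX5B (0.123 in both).

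In complex V, ATP5ME, a small subunit at the dimer interface, had 327, 346 and 387 FPKM in the controls and 1248, 628 and 679.8 in the knockdown, a change of 1.20 ± 0.23 (adjusted p = 0.0124). ATP5PO and ATP5PD, both of the peripheral stalk, rose by 1.01 ± 0.28 (adjusted p = 0.0405) and 0.92 ± 0.25 (adjusted p = 0.0371), and the membrane subunit ATP5MK by 0.83 ± 0.23 (adjusted p = 0.0432). ATP5F1A, ATP5F1B and ATP5F1C, which encode the alpha, beta and gamma subunits of the catalytic head, had differences of 0.36 ± 0.14, 0.59 ± 0.28 and 0.30 ± 0.23, with adjusted p of 0.114, 0.172 and 0.374, and of 0.30, 0.16 and -0.04 in the 11 libraries (adjusted p of 0.128, 0.161 and 0.731). The knockdown values of ATP5F1A and ATP5F1B lay above all controls and those of ATP5F1C overlapped them. Whether head and stalk genes differ in their change was not tested.

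The number of calls in the knockdown against the controls was sensitive to single libraries. With 12 libraries, the 21 higher genes became 0 without siRNA_Control replicate 1 or replicate 2, 7 without replicate 3, 12 or 13 without MYB-WT_Rescue replicate 1 or any 1 of the D152V_Rescue libraries, and 38 to 40 without any 1 of the knockdown libraries. They became 9 with no filter and 0 in a fit of only the 6 libraries compared. With 11 libraries, leaving out 1 more gave 21 to 44, with 23 without siRNA_Control replicate 1 and 21 without either remaining knockdown library. The 2 lower genes of that fit, COX7A2L and UQCRC2, became 1 without any 1 of the control or D152V_Rescue libraries or MYB_KnockDown replicate 3.

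**Figure D3:**
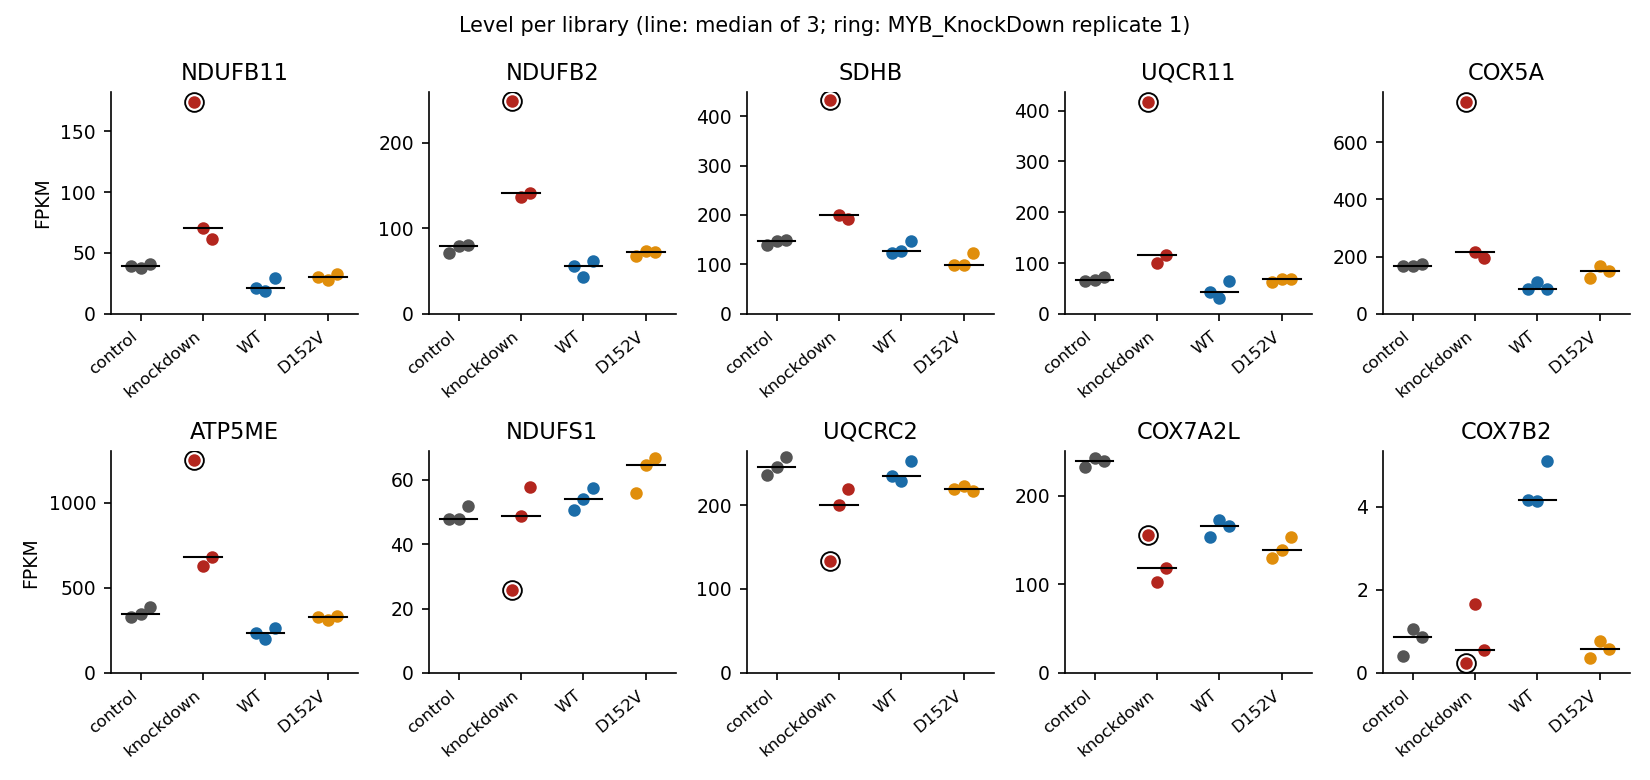
FPKM (linear y axes from 0) of 10 subunit genes in each of the 12 libraries by group, with lines at the median of 3 and a ring around MYB_KnockDown replicate 1. NDUFB11, NDUFB2, SDHB, UQCR11, COX5A and ATP5ME are highest in all knockdown libraries, NDUFS1 and UQCRC2 are not, COX7A2L is highest in the controls at 233 to 243 FPKM, and COX7B2 is high only in MYB-WT_Rescue at 4.14 to 5.09 FPKM.

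The rescue comparisons ask whether the added MYB proteins set these levels back. In MYB-WT_Rescue, 56 of the 81 subunit genes (69.1%) were lower than in the knockdown and 2 were higher, against 16.9% and 20.6% of all tested genes, and the median change was -0.88 (0.03 over all tested genes). In the 11 libraries, 60 were lower, including all 56, and the same number of 2 was higher (19.9% and 25.3% of tested genes), with a median of -0.54. The lower genes of the 12-library fit were 26 of complex I, 3 of complex II, 5 of complex III, 11 of complex IV and 11 of complex V. In a fit of only the 6 libraries compared, 18 were lower. Values did not overlap for 64 genes that were lower and 2 that were higher (21.9% and 26% of tested genes).

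NDUFB11 fell from 174, 70.3 and 61.6 FPKM in the knockdown to 21.3, 18.5 and 29.3 in MYB-WT_Rescue, a log2 change of -1.97 ± 0.31 (adjusted p = 0.00108). These values were below the controls too. NDUFB2 fell to 55.9, 43.5 and 61.7 FPKM (-1.65 ± 0.21, adjusted p = 0.0003), and NDUFS3 to 41.4, 36.8 and 50.3 (-1.64 ± 0.42, adjusted p = 0.0117). NDUFV1, which had not been called in the knockdown, was at 139, 129 and 113 FPKM here and fell by 0.78 on the log2 scale (adjusted p = 0.0162). NDUFS1, at 53.9 ± 3.4 FPKM, was not called (adjusted p = 0.235).

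SDHB fell to 122, 126 and 146 FPKM (-0.95 ± 0.26, adjusted p = 0.0148), and SDHC and SDHD were called with it, with changes of -0.57 and -0.44. In complex III, UQCR11 fell to 43.3, 31.8 and 65.2 FPKM, by -1.89 ± 0.44 (adjusted p = 0.00685), and UQCRQ to 75.9, 70.0 and 88.9, by -1.56 ± 0.36 (adjusted p = 0.00664). CYC1, the cytochrome that hands electrons to cytochrome c, was at 113 ± 4.81 FPKM in the knockdown and 84.7 ± 4.52 here, a change of -0.41 ± 0.10 (adjusted p = 0.00914). UQCRC2 and UQCRFS1 were not called.

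In complex IV, every member except COX7A2L and COX7B2 was lower. COX5A fell to 87.9, 111 and 87.1 FPKM, by -1.73 ± 0.39 (adjusted p = 0.00615), and each of these values was below each control. COX8A fell to 203, 154 and 232 FPKM (-1.53 ± 0.22, adjusted p = 0.000656), also below the controls. In complex V, ATP5ME fell to 237, 199.7 and 262 FPKM, by -1.80 ± 0.23 (adjusted p = 0.000279), and remained called in all alternatives tried. ATP5F1A and ATP5F1B were called, with changes of -0.61 ± 0.14 and -0.78 ± 0.28 (adjusted p of 0.00809 and 0.047), and ATP5F1C was called in the 11 libraries only (-0.25 ± 0.08, adjusted p = 0.0177).

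In D152V_Rescue, 38 subunit genes (46.9%) were lower than in the knockdown and 0 were higher, against 12% and 13% of tested genes, with a median change of -0.74 (0.02 over all tested genes). No subunit gene was higher by limma at the adjusted threshold in the 12 libraries; in the 11, 3 were higher and 49 lower (16.6% and 15.9% of tested genes), including all 38, with a median of -0.38. Over both directions, 57 of the 81 genes had an unadjusted p under 0.05 in the 12 libraries. The 38 were 21 of complex I, 2 of complex II and 5 each of complexes III, IV and V. Values did not overlap for 58 lower genes and 1 higher gene (20.7% and 22% of tested genes). The 38 became 20 to 22 without any 1 of the D152V_Rescue libraries, 23 with no filter and 1 with only the 6 libraries compared, and the 3 higher genes became 1 without either remaining knockdown library.

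NDUFB11 was at 30.2, 28.1 and 33.1 FPKM in D152V_Rescue, a change of -1.55 ± 0.31 from the knockdown (adjusted p = 0.00661), and SDHB at 99.2, 98.5 and 123, a change of -1.25 ± 0.26 (adjusted p = 0.00701). Both genes were below all controls. ATP5ME was at 326, 312 and 332 FPKM, overlapping the controls, with a change of -1.33 ± 0.23 (adjusted p = 0.00284). COX5A, at 125, 166 and 150.1 FPKM, was called in the 11 libraries only (-0.49 ± 0.13, adjusted p = 0.0126). The comparisons of both rescues and of the controls with the knockdown share the knockdown libraries.

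The difference between the rescue lines was tested directly. With 12 libraries, 0 subunit genes were higher in D152V_Rescue and 1, COX7B2, was lower, against 5.96% and 6.19% of tested genes; by limma 7 of the 81 had an unadjusted p under 0.05. With 11 libraries, 27 (33.3%) were higher and 4 lower, against 13.6% and 17.8%, although the fitted changes are the same, since the knockdown libraries enter only through the shared spread. The median change was 0.18 (-0.03 over all tested genes), and 67 of the 81 genes were above 0. The values of the lines did not overlap for 35 genes that were higher in D152V_Rescue and 4 that were lower (18.3% and 24.3% of tested genes). Library numbers paired the rescue lines, and with the replicate number as a block 1 gene was higher in the 12 libraries and 37 in the 11. Leaving out MYB-WT_Rescue replicate 3 as well as MYB_KnockDown replicate 1 left 1 of the 4 lower genes, as did leaving out D152V_Rescue replicate 1 or 2.

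The 27 higher genes were 13 of complex I, 2 of complex III, 7 of complex IV and 5 of complex V, with none of complex II. COX5A, COX6B1 and COX8A, at 147 ± 20.7, 344 ± 50.4 and 275 ± 32.5 FPKM in D152V_Rescue, were higher by 0.62 ± 0.11, 0.62 ± 0.16 and 0.50 ± 0.15 than in MYB-WT_Rescue, at 95.2 ± 13.3, 226 ± 57.3 and 196 ± 39.5 (adjusted p of 0.00181, 0.013 and 0.0273 in the 11 libraries). ATP5ME and ATP5MC3 were higher by 0.48 ± 0.10 and 0.45 ± 0.12 (adjusted p of 0.00386 and 0.0142), and NDUFB2 by 0.41 ± 0.11 (adjusted p = 0.0148). SDHB was lower, by -0.30 ± 0.10 (adjusted p = 0.0361), with overlapping values.

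Against the controls, MYB-WT_Rescue had 1 subunit gene higher and 1 lower in the 12 libraries, COX7B2 and COX7A2L (5.04% and 4.58% of tested genes), while 17 had an unadjusted p under 0.05. In the 11 libraries, 41 (50.6%) were lower and 1 higher, against 15.9% and 13.8%, with a median of -0.24 (-0.02 over all tested genes). The 41 were 19 of complex I, 3 of complex III, 9 of complex IV and 10 of complex V. They became 26 or 27 without siRNA_Control replicate 2 or 3. Values did not overlap for 51 lower and 2 higher genes (23.3% and 21.4% of tested genes). COX5A and NDUFB11 were lower than in the controls by 0.83 ± 0.11 and 0.77 ± 0.14 (adjusted p of 0.000406 and 0.00201). In both genes the 3 control values lay above the 3 rescue values.

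D152V_Rescue had 2 genes lower and 0 higher than the controls in the 12 libraries, ATP5MC1 and COX7A2L (4.94% and 4.61% of tested genes), and by limma only these 2 had an unadjusted p under 0.05. In the 11 libraries 9 were lower and 1, NDUFS1, was higher (16.4% and 11.2%), so the share of lower genes, 11.1%, was below that of all tested genes. Values did not overlap for 21 lower and 7 higher genes (26.2% and 18.2% of tested genes). The median was -0.07 (-0.04 over all tested genes). NDUFS1 was at 56.0, 64.5 and 66.7 FPKM, all above the controls, with a change of 0.33 ± 0.09 (adjusted p = 0.0178); that call was lost without siRNA_Control replicate 1 or 2 or D152V_Rescue replicate 2 or 3. SDHB was lower by 0.44 ± 0.10 (adjusted p = 0.00602).

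COX7A2L (chr2:42335559-42368957) encodes a COX7A-related protein that joins complexes III and IV into supercomplexes. It moved against most other members of complex IV in the knockdown against the controls and in MYB-WT_Rescue against the knockdown. It was at 233, 243 and 239 FPKM in the controls, 156, 102 and 118 in the knockdown, 153, 173 and 166 in MYB-WT_Rescue and 130.0, 138 and 153 in D152V_Rescue. The controls stood above all 9 other libraries. The knockdown change was -0.94 ± 0.15 (adjusted p = 0.00637), and -1.11 ± 0.09 (adjusted p = 6.59e-05) in the 11 libraries. Against the controls it was also lower in both rescue lines, by 0.54 ± 0.15 and 0.76 ± 0.15 (adjusted p of 0.0399 and 0.00716). In MYB-WT_Rescue it was higher than in the knockdown, by 0.40 ± 0.15 (adjusted p = 0.0488), with overlapping values, and by 0.57 ± 0.09 (adjusted p = 0.000511) in the 11 libraries. The call of 0.0488 was lost without any 1 of 11 libraries and held without MYB_KnockDown replicate 1, and that of 0.0399 was lost without any 1 of the 9 control and rescue libraries. Its near copy COX7A2 moved the opposite way, from 123 ± 11.4 FPKM in the controls to 371, 190.5 and 180.3 in the knockdown and 94.0 ± 5.74 in MYB-WT_Rescue.

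COX7B2 (chr4:46734827-46909245) was high in 1 line only. It was at 0.411, 1.05 and 0.853 FPKM in the controls, 0.237, 1.65 and 0.55 in the knockdown, 4.15, 4.14 and 5.09 in MYB-WT_Rescue and 0.36, 0.767 and 0.568 in D152V_Rescue. Each MYB-WT_Rescue value exceeded each of the 9 others. The gene passed the filter on low values only through this group, so the filter favoured the tests that follow. The change was 1.64 ± 0.25 against the controls (adjusted p = 0.00235), 1.66 ± 0.25 against the knockdown (adjusted p = 0.000832) and -1.81 ± 0.25 for D152V_Rescue against it (adjusted p = 0.000707), on a scale that understates changes at this low level.

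The 3 genes ATP5MC1, ATP5MC2 and ATP5MC3 encode the same mature subunit c of the ATP synthase ring. Their summed level was 1611, 1605 and 1739 FPKM in the controls, 3648, 1814 and 1913 in the knockdown, 1282, 1189 and 1407 in MYB-WT_Rescue and 1329, 1392 and 1586 in D152V_Rescue. ATP5MC1 gave 21.0% to 22.8% of that sum in the controls and 16.4% to 19.1% in D152V_Rescue, without overlap. Its level of 253, 229 and 259 FPKM there was below the controls, at 367, 351 and 365, by 0.54 ± 0.14 (adjusted p = 0.0361). That call was lost without any 1 of the 3 control or the 3 D152V_Rescue libraries or MYB-WT_Rescue replicate 1, and stood in the 11 libraries at an adjusted p of 0.002.

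Subunit genes have short transcripts, and length moved with the values. The median canonical transcript of the 80 members with a length was 760.5 nt, against 2806 nt for tested genes, and 47 members but 14% of tested genes had transcripts of up to 1000 nt. In MYB_KnockDown replicate 1, tested genes of up to 700 nt lay 0.63 above the control mean and those over 4000 nt 0.48 below it (median -0.48). In the other 2 knockdown libraries these medians were 0.10 and -0.12. The members of the same classes were at 1.39 and 0.46 in replicate 1 and at 0.35 and 0.19 in replicates 2 and 3, above the tested genes of their length in each of the 6 length classes. In MYB-WT_Rescue they were at -0.26 and -0.05, against -0.11 and 0.07 for tested genes. Classes over 700 nt hold only 5 to 11 members each. With the trend of each library with length removed, the median member stood at 0.83, 0.28 and 0.27 in the knockdown libraries and at -0.15, -0.18 and -0.12 in MYB-WT_Rescue. How much of the counts of calls comes with length was not tested beyond these values.

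**Figure D4:**
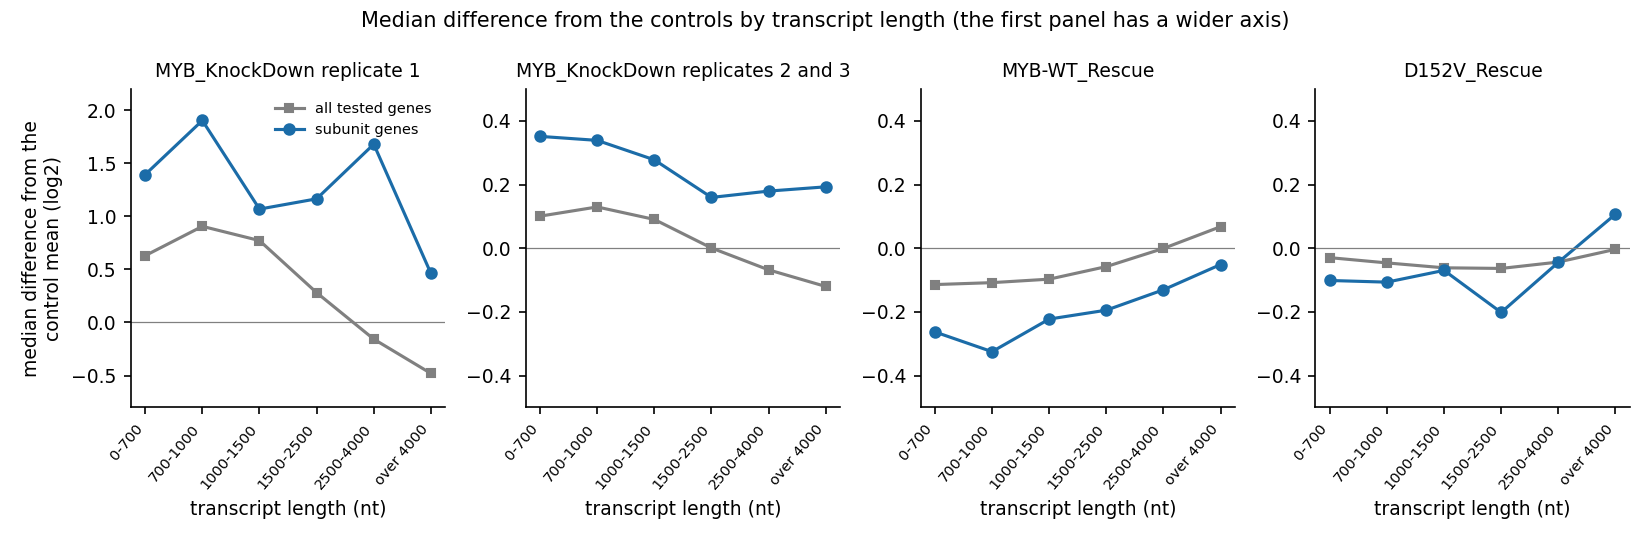
Median difference from the control mean, in log2(FPKM + 1), by transcript length in nucleotides, for subunit genes (blue, 5 to 36 a class) and all tested genes (grey); the first panel has a wider y axis. In the knockdown the subunit genes lie above tested genes of the same length in all 6 classes, and in MYB-WT_Rescue below them.

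Other genes of oxidative phosphorylation were counted in fixed lists. Of 51 tested assembly factors, which build the complexes, 3 rose in the knockdown (COX14, COX16 and UQCC2, by 1.25, 1.17 and 1.07) and 0 fell, with a median of 0.37, where 3.94% and 7.38% of all tested genes were called. In the 11 libraries 9 rose and 3 fell, with a median of 0.19 (7.26% and 12.9% of tested genes); the 3 that fell, named after their values were seen, were COA7, ACAD9 and COX20. Against the knockdown, 19 were lower in MYB-WT_Rescue and 15 in D152V_Rescue (16.9% and 12% of tested genes). In the 11 libraries 21 and 19 were lower (19.9% and 15.9% of tested genes). There 4 (NDUFAF7, SCO1, ACAD9 and COX20) and 3 (ATPAF1, ACAD9 and COX20) were higher, also named after their values were seen (25.3% and 16.6% of tested genes). UQCC2, a complex III assembly factor, was at 18.6, 20.3 and 22.3 FPKM in the controls, 73.8, 36.2 and 31.2 in the knockdown and 12.1, 12.4 and 11.9 in MYB-WT_Rescue. SDHAF2, which inserts FAD into SDHA, was lowest in MYB-WT_Rescue, at 24.2, 26.3 and 26.4 FPKM against 46.5 to 61.8 in the controls and 64.1 to 71.4 in D152V_Rescue (difference between the rescues of 1.36, adjusted p = 8.01e-05).

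Of 9 carriers and subunits outside the symbols, 1 rose in the knockdown, HIGD2A (by 0.77, adjusted p = 0.0138), a complex IV assembly partner. In MYB-WT_Rescue 6 were lower than in the knockdown. In the 11 libraries 2 rose, with NDUFAB1, and again 6 were lower. Of all tested genes, 3.94% rose in the knockdown and 16.9% were lower in MYB-WT_Rescue, and 7.26% and 19.9% in the 11 libraries. CYCS, cytochrome c, was not called in any comparison in either fit (0.34 in the knockdown, adjusted p = 0.0809). Of 14 citric acid cycle enzymes, 0 rose and 2 fell in the knockdown: CS, citrate synthase, from 263, 259 and 257 FPKM to 118, 169 and 206, and OGDH from 41.2, 41.3 and 42.6 to 17.0, 29.8 and 34.1. In the 11 libraries 1 rose and 4 fell, CS, OGDH, IDH3B and MDH2, of which IDH3B and MDH2 are named after their values were seen. Of all tested genes, 7.38% fell in the 12 libraries and 12.9% in the 11. In MYB-WT_Rescue against the knockdown, CS and OGDH were higher, by 0.79 and 0.87, and IDH3G, SUCLG1, IDH3A and IDH2 were lower. These 2 higher and 4 lower enzymes stand beside 20.6% and 16.9% of all tested genes, and the median of the 14 was -0.17. In the 11 libraries 3 were higher and 5 lower, beside 25.3% and 19.9%. IDH3A and IDH2 were lower in MYB-WT_Rescue than in the controls, each by 0.67 (adjusted p of 0.0151 and 0.0227).

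Of 16 tested regulators of these genes, 0 rose in the knockdown in the 12 libraries and CREB1 and PPRC1, a coactivator related to PGC-1alpha, fell, by 0.93 and 0.52 (adjusted p of 0.00347 and 0.0302), against 3.94% and 7.38% of tested genes. In the 11 libraries both fell and 2 rose, TEFM and ESRRA, named after their values were seen (adjusted p of 0.0328 and 0.0389), against 7.26% higher and 12.9% lower. CREB1 and PPRC1 were higher in MYB-WT_Rescue than in the knockdown, as were TFB2M and GABPA, the latter named after its values were seen. TFB1M, a mitochondrial rRNA methyltransferase, was lower in both rescues than in the knockdown. Among the 13 subunits encoded by mitochondrial DNA, MT-CO3, MT-ATP6 and MT-ATP8 are listed at 0 in all 9 libraries outside the knockdown and at 5132 to 39713 FPKM in it, so their values cannot be read as levels. The other 10 had no call in the knockdown against the controls in either fit, and their levels varied within groups, as for MT-CO1, at 13829, 7803 and 7882 FPKM in the controls and 9012, 4756 and 4889 in the knockdown.

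Cytosolic ribosomal protein genes, also abundant, were counted in the same way. In the knockdown 27 of 82 were higher and 0 lower, with a median of 0.81, and without MYB_KnockDown replicate 1 49 were higher and 0 lower, with a median of 0.40. In MYB-WT_Rescue against the knockdown 58 were lower, with a median of -1.17, and 65 lower and 1 higher without that library, with a median of -0.82. Of 78 mitochondrial ribosomal protein genes, 7 were higher and 2 lower in the knockdown, with a median of 0.45, and 15 higher and 9 lower without it, with a median of 0.14. In MYB-WT_Rescue against the knockdown 29 of these were lower and 3 higher, with a median of -0.61, and 37 lower and 10 higher without it, with a median of -0.24. Of all tested genes, 3.94% were called higher and 7.38% lower in the knockdown and 20.6% and 16.9% in MYB-WT_Rescue against it, and 7.26%, 12.9%, 25.3% and 19.9% in the 11 libraries. Their part in the FPKM scale of the subunit genes was not tested.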

How the data were processed

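RNA was sequenced from 12 K-562 libraries, 3 in each of 4 groups, as stranded poly(A) libraries read from both ends, per the labels' protocols. The deposited table gives FPKM values for 60658 rows. The submitters' processing notes name bcl2fastq 2.17.1.14, Trimmomatic 0.33, TopHat2 2.0.13, Cufflinks 2.2.1 and the build GRCh38, and the sources used here name no annotation and do not say how strand was used in counting. FPKM keeps no read counts, so the depth of each library is unknown and counting error cannot be given. Per the labels, the libraries of a group come from individual experiments, so p-values measure the spread between those.

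The 13393 rows with at least 1 FPKM in at least 3 libraries were tested with limma 3.58.1 (R 4.3.3) on log2(FPKM + 1), with a trend, 4 group means, 6 contrasts and 8 residual degrees of freedom. Changes are differences on this log2 scale, which understates those of low genes. P-values were adjusted by the Benjamini-Hochberg method over all tested genes, and a call is an adjusted p under 0.05. The fit was tested on simulated data. Tables and figures were made with Python 3.11.15, pandas 2.3.3 and matplotlib 3.10.9. Coordinates and promoter windows are from RefSeq tables.

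Genes named with values are core subunits, up to 4 called members a complex and comparison by size of change, the highest and lowest member of each complex, isoform families, up to 3 called genes a comparison from each other list, CYCS and MYB. The members and lists were chosen with earlier results of these data known. Deviations of same-numbered libraries correlated at 0.153 to 0.233 between the rescue groups, so numbers were taken as pairing those. In the other comparisons they were not, since the lowest same-number correlation was under 0.1. Between knockdown and controls, same-number correlations (0.038 to 0.132) were still above those of other numbers (-0.146 to 0.031). The main fit has no pairing in any comparison. Alternatives were the pseudocount, filters, scalings, moderation, a replicate block, removal of the trend with transcript length, library weights, only the 6 libraries compared, and leaving out each library. Those that combine the 11 libraries with a further change were chosen after seeing the data.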

Additional observations from a re-analysis of the deposited data

Results flagged for a closer look

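COX7B2 differed between the rescue lines although both received the same siRNA. The log2 change of D152V_Rescue minus MYB-WT_Rescue was -1.81 ± 0.25 (limma, adjusted p = 0.000707), at 4.15, 4.14 and 5.09 FPKM in MYB-WT_Rescue and 0.36, 0.767 and 0.568 in D152V_Rescue. COX7B2 reached 1 FPKM in 5 libraries, among them all of MYB-WT_Rescue, and it passed the filter only through that group. The filter therefore favoured a gene that is high there. The call was kept in all 22 alternatives in which the gene was tested, which use the same libraries and are not further evidence. Whether the difference lies in the line or in the protein cannot be told apart.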

How the results depend on the processing

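Counts of calls depended on the libraries and settings more than directions did. For the knockdown against the controls, the 21 higher genes became 9 with no filter, 0 with only the 6 libraries compared and 43 with library weights, and the 1 lower gene became 0 and 2 with the latter settings. For MYB-WT_Rescue against the knockdown, the 2 higher genes became 1 with no filter, a mean of at least 5 FPKM, median-ratio scaling, robust moderation, the replicate block or only 6 libraries, and 5 in the 11 libraries with the length trend removed or with quantile normalization. The 56 lower genes became 18 with only 6 libraries. For D152V_Rescue against the knockdown, the 0 higher genes became 2 with quantile normalization and 1 with library weights, the 3 of the 11 libraries became 6 with the length trend removed and 8 with quantile normalization, and the 38 lower genes became 23 with no filter and 1 with only 6 libraries. For D152V_Rescue against MYB-WT_Rescue, the 0 higher genes became 16 with quantile normalization, 2 with median-ratio scaling, 1 with the replicate block, 20 with only 6 libraries, 3 with the length trend removed, 3 with that and the replicate block, and 22 with library weights. Its 1 lower gene became 0 with a mean of at least 5 FPKM (which leaves COX7B2 out), 2 with only 6 libraries and 3 with weights, and the 4 of the 11 libraries became 2 with quantile normalization. For MYB-WT_Rescue against the controls, the 1 higher gene became 0 with a mean of at least 5 FPKM, and the 1 lower gene became 0 with no filter, 9 with quantile normalization, 32 with only 6 libraries, 3 with the length trend removed, 4 with that and the replicate block, and 33 with weights. Its median of -0.24 became -0.15 with the length trend removed, with or without the replicate block. For D152V_Rescue against the controls, the 0 higher genes became 1 with only 6 libraries or weights, the 1 of the 11 libraries became 2 with the length trend removed and 7 with quantile normalization, and the 2 lower genes became 1 with no filter, quantile normalization or median-ratio scaling and 9 with only 6 libraries or weights. The 9 lower genes of the 11 libraries became 22 with the replicate block. Its median of -0.07 reversed to 0.018 with quantile normalization. With the replicate block and 11 libraries, 45 genes were higher in the knockdown, 60 and 54 lower in the wild-type and D152V rescues than in the knockdown, and 49 lower in MYB-WT_Rescue than in the controls. Of the named genes, ATP5MF in MYB-WT_Rescue against the knockdown reversed to 0.041 and UQCRH in D152V_Rescue against the knockdown to 0.00049 with quantile normalization, and ATP5MF-PTCD1 in the latter comparison to -0.29 without MYB_KnockDown replicate 1, with a range of -0.29 to 0.88 when 1 library was left out.

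Leaving out 1 library at a time gave, with 12 libraries and then from the 11, 0 to 40 and 21 to 44 higher and 1 to 2 and 1 to 2 lower genes in the knockdown against the controls (median 0.29 to 0.84). It gave 1 to 3 and 2 higher and 40 to 66 and 57 to 59 lower in MYB-WT_Rescue against the knockdown (median -1.07 to -0.54), and 0 to 3 and 1 to 3 higher and 20 to 53 and 35 to 50 lower in D152V_Rescue (median -0.91 to -0.38). Between the rescues it gave 0 to 27 and 19 to 32 higher and 1 to 4 and 1 to 5 lower (median 0.14 to 0.20). Against the controls it gave 1 higher and 0 to 41 and 26 to 43 lower in MYB-WT_Rescue (median -0.27 to -0.22), and 0 to 1 and 0 to 1 higher and 1 to 9 and 6 to 11 lower in D152V_Rescue (median -0.11 to -0.06). Where 1 setting tests fewer genes or libraries, that is part of its change, and the cause of the other changes was not tested. FPKM values carry no depth, so the precision of low genes is unknown.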
